A study of Mus musculus with 12 samples.

Results

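The genes described here are the 37 genes of the mouse mitochondrial genome, taken as every row of the deposited table that the authors placed on chromosome MT, out of 54532 genes in the table. They are 13 protein-coding genes, 2 ribosomal RNA genes and 22 transfer RNA genes. They were followed in 12 RNA-seq libraries of whole liver from wild-type C57/BL6J mice. The groups, of 3 libraries each, were livers of mice with a sham operation and livers taken at 3, 6 and 12 h after removal of 70% of the organ, an operation after which the remainder regrows. For the sham livers no hour is stated, and for no mouse is sex or age given in the labels. One 6 h library (replicate 3) is titled 6 h and tagged 7 h, and was kept with the 6 h group by its title. Whether the replicates of a group are different animals is not stated, so the p-values measure only the spread between these libraries, which may be technical.

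Mitochondrial DNA is a small circle present in many copies per cell. Its genes encode core subunits of the respiratory chain and ATP synthase together with the rRNAs and tRNAs that translate them inside the organelle, and all other mitochondrial proteins are encoded in the nucleus. Both strands are transcribed as long precursors, from which the tRNAs that lie between the other genes are cut out, so that one precursor yields many members. Hepatocytes are rich in mitochondria, and mitochondrial transcripts are among the most abundant RNAs of liver. Members are described in the order subunits of complex I, III, IV and ATP synthase, then rRNAs, then tRNAs.

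The libraries held 15573405 to 17199639 counts on genes. All 10 hepatocyte markers on the list used were measured and passed the filter, with a summed level of 25518 to 27323 fragments per kilobase of gene and per unit of depth (FPKM) at 12 h and 39499 to 41029 FPKM in sham livers, in which sham replicate 1 had the lowest value. The libraries were made from polyadenylated RNA. Mature mitochondrial tRNAs and rRNAs carry no long poly(A) tail, so the levels of these members are what such a library captures and not their abundance in the cell. The kit named in the labels (NEBNext Ultra RNA) does not by itself mark the strand of a read, and the strand setting of the counting is not given in the sources used here. Reads of a gene and of transcripts from the opposite strand at the same place therefore cannot be told apart.

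A test was run for members that reached 1 FPKM and 10 counts in at least 3 of the 12 libraries. This left 29 of the 37 members among 11048 genes tested, namely all 13 protein-coding genes, both rRNAs and 14 of the 22 tRNAs. Of the 8 other tRNAs, mt-Tf and mt-Ts1 had no count in any library, where a count of 0 allows up to 3 counts a library, and the others (mt-Tv, mt-Tq, mt-Ta, mt-Td, mt-Tk and mt-Tt) had 0 to 7 counts a library. Each test used edgeR's quasi-likelihood model over all genes with Benjamini-Hochberg adjustment, and an adjusted p under 0.05 counted as a call. Differences are log2 values with their standard errors.

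One sham library stood apart. In sham replicate 1, 11.9% of all gene counts fell on mitochondrial genes, against 6.26% and 5.52% in sham replicates 2 and 3. In time order, the share was 11.9%, 6.26% and 5.52% in sham livers, 5.94%, 6.37% and 6.31% at 3 h, 6.26%, 6.91% and 8.49% at 6 h, and 8.31%, 7.68% and 8.23% at 12 h. With sham replicate 1 the sham mean was 7.90% ± 3.51 (SD, n = 3), and without it 5.89% ± 0.522 (SD, n = 2). The resected groups averaged 6.21% ± 0.235 at 3 h, 7.22% ± 1.15 at 6 h and 8.07% ± 0.346 at 12 h (SD, n = 3 each). The 12 h libraries lay above all 3 h libraries and above sham replicates 2 and 3, but below sham replicate 1. The 95% Wilson interval of each share was at most 0.0158 percentage points to either side, which covers counting error only, so counting error is small beside the spread between libraries. A share also rises where counts on other genes fall. In bulk tissue this, more cells rich in mitochondria and more mitochondrial RNA per cell cannot be told apart.

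**Figure D1:**
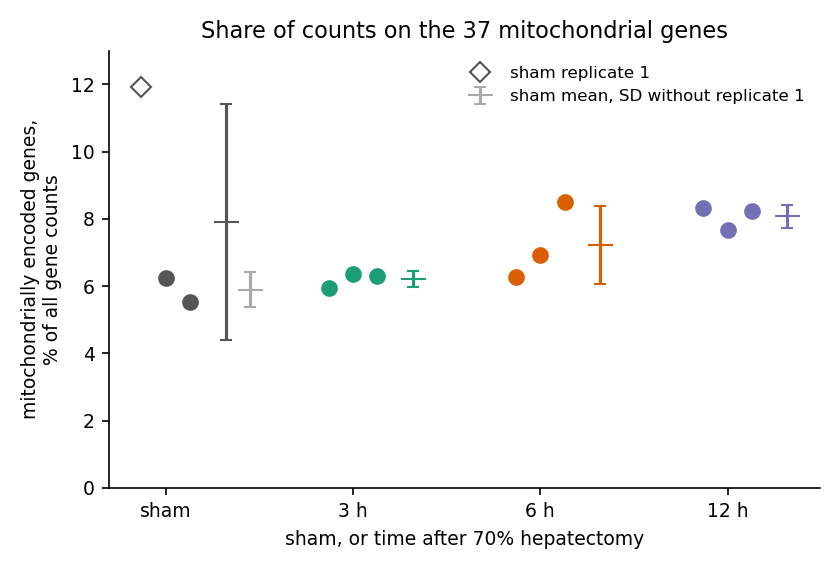
Percent of all gene counts that fell on the 37 mitochondrial genes (y axis) in each library, by group (x axis); points are libraries, and the bars to their right are group means with SD. Sham replicate 1, drawn as an open diamond at 11.9%, lies above every other library, and the grey bar is the sham mean of 5.89% without it.

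All values against sham are therefore given with all 12 libraries and again without sham replicate 1. That library was set apart by the very quantity described here. Leaving it out lowers the sham level of most members by choice, so the calls without it are a description of what the other 11 libraries show and not independent evidence. Without it, more genes of any kind are called in each comparison.

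Sham replicate 1 differed from the other sham libraries member by member, not by one factor. Of the 29 tested members, 22 were above both other sham libraries and 6 below both. The ratio of sham replicate 1 to the mean of the other sham libraries had a median of 1.76 over the members and of 0.987 over all tested genes, and 20 of the 29 members reached a ratio of 1.5, against 18.6% of all tested genes. Among the mRNAs the ratio was 3.39 for mt-Nd6, 3.16 for mt-Nd5, 2.69 for mt-Nd2, 2.15 for mt-Co1, 1.99 for mt-Nd1 and 1.73 for mt-Cytb. The rRNAs had ratios of 1.46 (mt-Rnr1) and 1.76 (mt-Rnr2). Ratios among tRNAs ran from 0.307 for mt-Tg to 5.89 for mt-Ts2, with 3.84 for mt-Tp. Between sham replicates 2 and 3 a chi-square per degree of freedom over all genes was 9.26, and between sham replicate 1 and these it was 93.5 and 116. Summed marker levels in sham replicate 1 were 39499 FPKM for hepatocytes (10 of 10 markers tested), the lowest of a sham range up to 41029 FPKM, and 72.8 FPKM for macrophages (8 of 8) in a sham range of 62.6 to 88.7 FPKM. For red blood cells (6 of 7) the sum was 119.8 FPKM in a range of 95.8 to 122 FPKM, and for neutrophils (4 of 8) 2.17 FPKM in a range of 1.72 to 2.34 FPKM. For lymphocytes, none of whose 8 markers passed the filter, it was 1.67 FPKM, the highest of the sham group. The part of any of these in its mitochondrial share was not tested.

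**Figure D2:**
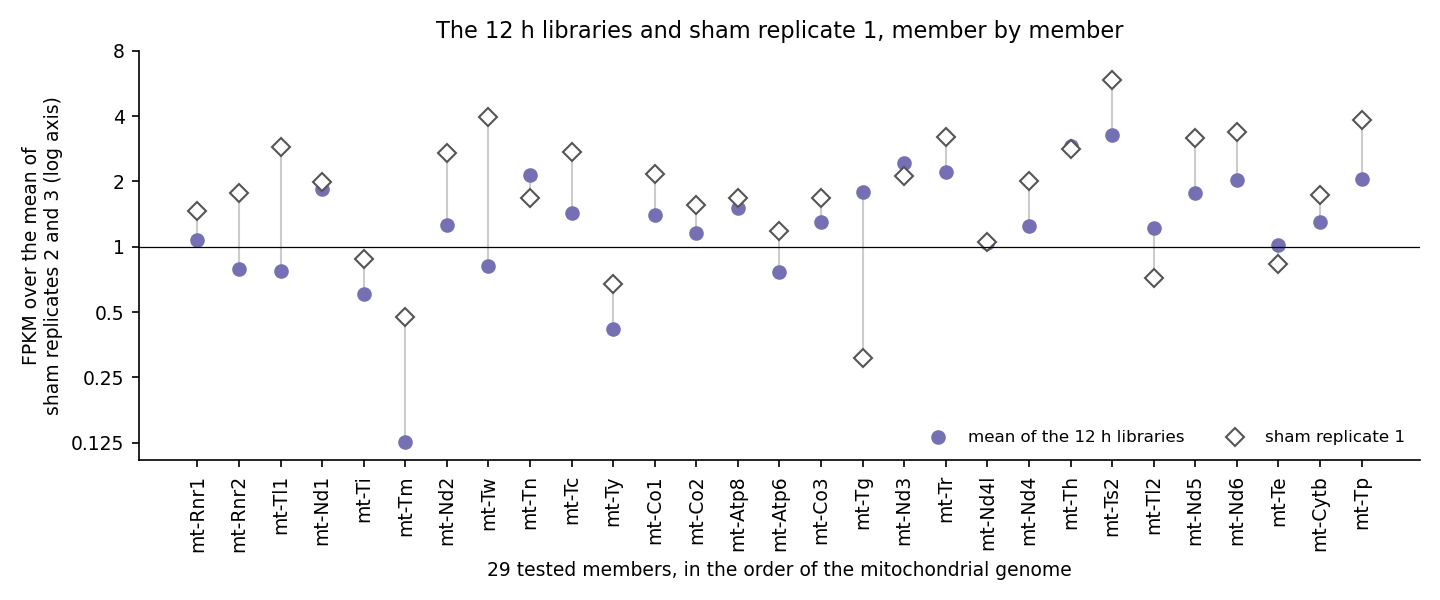
FPKM of each tested member over the mean of sham replicates 2 and 3 (y axis, log scale), for the mean of the 12 h libraries (filled circles) and for sham replicate 1 (open diamonds), in genome order (x axis). For mt-Nd1 the 12 h mean is at 1.85 and sham replicate 1 at 1.99, while mt-Tw stands at 3.96 in sham replicate 1 and 0.818 in the 12 h mean.

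Levels per length separated the protein-coding members into distinct sets. The 7 mRNAs mt-Co1, mt-Cytb, mt-Nd1, mt-Nd2, mt-Nd4, mt-Nd5 and mt-Nd6 lay between 1852 and 28426 FPKM in every library and took 96.9% to 98.2% of all mitochondrial counts. mt-Co1, the catalytic core of cytochrome c oxidase, was the highest, with a median of 17403 FPKM, and it took 37.6% to 40.1% of the mitochondrial counts in each of the 12 libraries. mt-Co2, mt-Co3, mt-Atp6, mt-Nd3 and mt-Nd4l encode subunits of the same complexes, yet lay between 33.0 and 579 FPKM. mt-Atp8, the shortest protein-coding member, lay between 1.10 and 5.04 FPKM, with 4 to 19 counts a library.

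These 5 low protein-coding members are the ones that have a nearly full-length annotated copy in the nuclear genome. On chromosome 1, between bases 24611535 and 24616197 of GRCm38 on the minus strand, a row of annotated pseudogenes carries a stretch of the mitochondrial genome that runs from the end of mt-Co1 into mt-Nd4. Aligned in GENCODE M21 transcripts, Gm28661 is identical to mt-Co2 over 681 of 684 bases, Gm10925 to mt-Atp6 over 678 of 681, Gm28437 to mt-Co3 over 783 of 784 and Gm10222 to mt-Nd4l over 294 of 297. Gm28438 matches mt-Nd3 over 345 of 348 bases with the single substitution T3C, counted from the first base of the mitochondrial gene. Gm28439 is identical to mt-Nd4 over its first 876 of 1378 bases, and Gm29216 carries the last 492 of the 1545 bases of mt-Co1. That copy differs from mt-Co1 by T1056A, C1057T, A1059G, A1060G, C1062A and A1066T, counted from the first base of mt-Co1, all at the start of the copy. Other pseudogenes share parts too: Gm13340 on chromosome 2 holds 27.5% of the stretches of 50 bases of mt-Co1. In all, 51.1% of those of mt-Co1 were found in another annotated transcript. For mt-Nd2 this was 8.19%, for mt-Nd5 7.61% and for mt-Rnr2 1.04%. No stretch of 50 bases of mt-Atp8 was found in another annotated transcript, although the gene lies between copied neighbours. Only annotated transcripts were searched. The search therefore cannot show whether the chromosome 1 bases between Gm10925 (ending at 24614651) and Gm28661 (starting at 24614885) copy mt-Atp8. The same holds for the tRNAs between copied genes, among them mt-Tg and mt-Tr. The 2 pairs that differ are shown over the 33 bases around their first difference, with the differing bases in capitals, because a read from the rest of either pair has the same letters in both places.
mt-Co1: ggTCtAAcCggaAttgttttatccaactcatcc
Gm29216: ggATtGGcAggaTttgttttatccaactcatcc
mt-Nd3: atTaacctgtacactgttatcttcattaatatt
Gm28438: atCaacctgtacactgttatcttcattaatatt
The mitochondrial windows are chrMT:6381-6413 and chrMT:9459-9491 on the plus strand, and the nuclear ones chr1:24616165-24616197 and chr1:24613087-24613119 on the minus strand. How reads that fit both places were counted is not given in the sources used here. The copies themselves had a median of 1117.5 counts for Gm28661 beside 1353.5 for mt-Co2, 1233.5 for Gm10925 beside 1601.5 for mt-Atp6, and 620.0 for Gm28437 beside 1062 for mt-Co3. For mt-Nd3 the copy had 110.0 counts beside 1117, and for mt-Nd4l 124.5 beside 221.5. The levels of mt-Co2, mt-Co3, mt-Atp6, mt-Nd3 and mt-Nd4l are therefore uncertain. So are the parts of mt-Co1, mt-Nd4, mt-Nd2, mt-Nd5 and mt-Rnr2 that are copied, and every call on these members below carries this limit. Whether mt-Atp8, mt-Tg and mt-Tr share this limit was not tested. Neighbouring genes also overlap by a few bases, mt-Atp8 with mt-Atp6, mt-Atp6 with mt-Co3, mt-Nd4l with mt-Nd4 and mt-Nd5 with mt-Nd6, and how such reads were assigned is likewise not given.

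**Figure D3:**
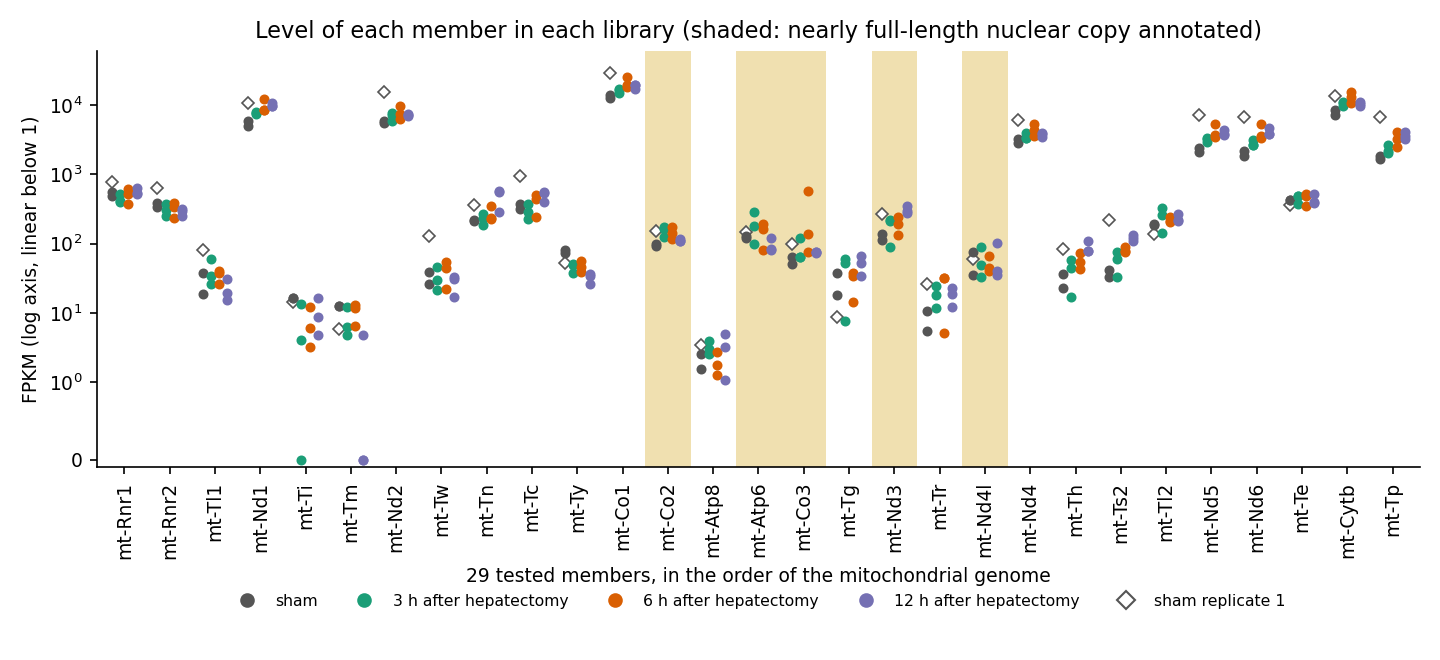
FPKM of the 29 tested members (y axis, log scale, linear below 1) in each library, in genome order (x axis), with sham replicate 1 as open diamonds and the 5 members with a nearly full-length annotated nuclear copy shaded. mt-Co1 lies at 12403 to 28426 FPKM in the 12 libraries, while the shaded members lie at 33.0 to 579 FPKM.

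Against sham, few members were called while all 12 libraries were kept. At 3 h no member was called, where 22.6% of all tested genes were (4 members had an unadjusted p under 0.05, and DESeq2 also called 0). At 6 h, 1 member was called, mt-Co3, where 36.3% of all genes were. At 12 h, 3 members were called, 1 higher and 2 lower, where 30.0% of all genes were. The median log2 difference of the 29 members was -0.24 at 3 h, 0.08 at 6 h and 0.03 at 12 h, and that of all tested genes was -0.02, -0.01 and -0.02. Each share of members called lay below that of all genes. In 5 members the 12 h and sham values did not overlap, 2 above and 3 below, which is the case for 39.5% of all tested genes.

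Without sham replicate 1 more members were called, and most of these were higher after resection. At 3 h, 3 members were called, 2 higher and 1 lower (24.3% of all genes). At 6 h, 11 were called, 10 higher and 1 lower (44.5% of all genes), and at 12 h, 11 were called, 9 higher and 2 lower (47.6% of all genes). The members' median was then 0.33, 0.27 and 0.37, and that of all genes -0.01, -0.00 and -0.00. The share of tested members called, 37.9% at 6 h and at 12 h, lay below that of all genes here too. Of all tested genes, 22.2% were called higher and 22.3% lower at 6 h, and 23.6% and 24.1% at 12 h. Summed marker levels moved in the same comparisons. Those of neutrophils (4 of 8 markers tested) were 1.72 to 2.34 FPKM in sham livers, 13.4 to 14.3 FPKM at 3 h, 9.22 to 19.5 FPKM at 6 h and 6.54 to 8.69 FPKM at 12 h, and those of bile duct (3 of 6) were 18.5 to 21.2 FPKM in sham livers, 28.4 to 38.9 FPKM at 3 h, 30.3 to 38.3 FPKM at 6 h and 22.6 to 30.4 FPKM at 12 h, each resected group being above all sham livers. Hepatocyte markers at 12 h, 25518 to 27323 FPKM, lay below the sham livers, at 39499 to 41029 FPKM. The part of these in the members' values was not tested.

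**Figure D4:**
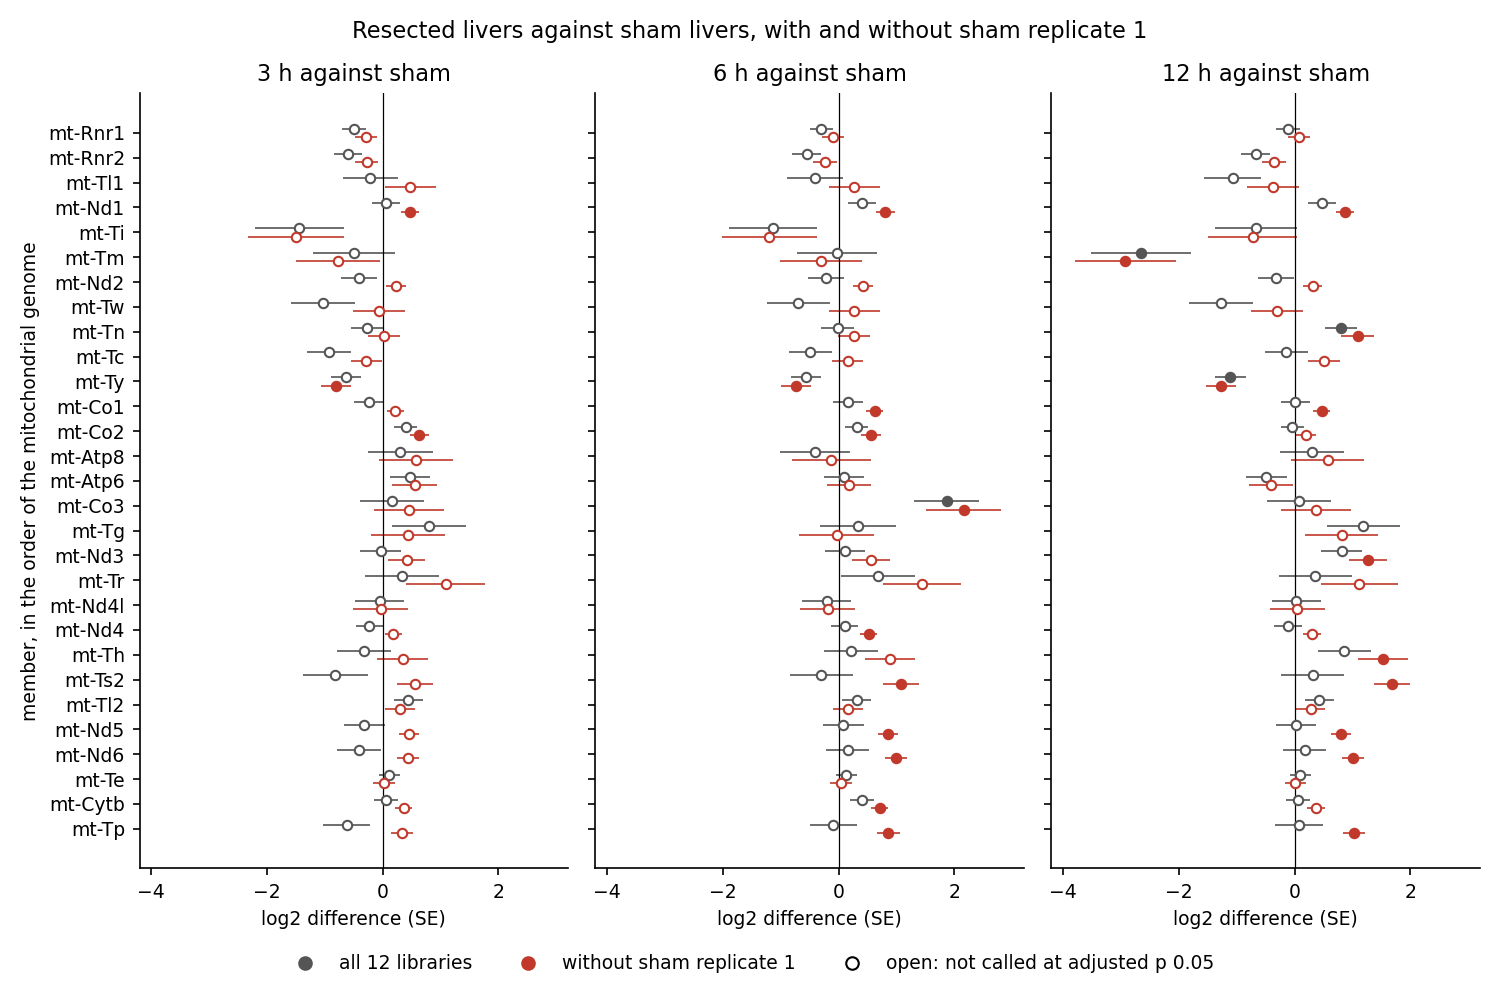
Log2 difference of each tested member (x axis, bars are SE) at 3, 6 and 12 h against sham, in genome order (y axis), with all 12 libraries in grey and without sham replicate 1 in red; filled points were called at an adjusted p under 0.05. In the right panel mt-Nd6 is at 0.17 with all libraries and 1.01 without sham replicate 1, while mt-Ty is at -1.11 and -1.28.

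Complex I takes electrons from NADH, and 7 of its subunits are members. mt-Nd1 (chrMT:2751-3707, plus strand), a membrane-arm subunit, had 10689.7, 5863 and 4867 FPKM in sham livers, 7435, 7619.9 and 7929 at 3 h, 8283, 8536 and 12017 at 6 h, and 9629, 9716 and 10463 at 12 h. Every resected liver was above sham replicates 2 and 3. With all libraries its difference against sham was 0.06 ± 0.24 at 3 h, 0.40 ± 0.24 at 6 h and 0.47 ± 0.24 at 12 h (adjusted p = 0.158). Without sham replicate 1 it was higher at 3 h (0.47 ± 0.16, adjusted p = 0.0475), 6 h (0.81 ± 0.16, adjusted p = 0.00132) and 12 h (0.87 ± 0.16, adjusted p = 0.000904).

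mt-Nd6 (chrMT:13552-14070) is the one protein-coding member on the minus strand. Its values and calls may include reads of plus-strand transcripts at the same place, which cannot be told apart here. mt-Nd6 had 6765, 2142 and 1852 FPKM in sham livers, 2629, 2638 and 3088 at 3 h, 3309, 3553 and 5310.3 at 6 h and 3765, 3819 and 4609 at 12 h. With all libraries the difference against sham was 0.16 ± 0.38 at 6 h and 0.17 ± 0.38 at 12 h (adjusted p = 0.763). Without sham replicate 1 it was 0.99 ± 0.19 at 6 h (adjusted p = 0.00112) and 1.01 ± 0.19 at 12 h (adjusted p = 0.0011), both called. Its neighbour mt-Nd5 (chrMT:11742-13565), which overlaps it on the other strand, had 3739, 3699.9 and 4286 FPKM at 12 h, against 7026, 2382 and 2059.6 in sham livers. The mt-Nd5 difference at 12 h was 0.03 ± 0.35 with all libraries and 0.80 ± 0.17 without sham replicate 1 (adjusted p = 0.00238).

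The other subunits of complex I differed among themselves. mt-Nd4 had 3808, 3429.8 and 3952 FPKM at 12 h, against 6055, 3161 and 2842 in sham livers, and was called without sham replicate 1 at 6 h (0.52 ± 0.15, adjusted p = 0.0151), where its difference was 0.10 with all libraries. mt-Nd2 was not called in any comparison with either set of libraries. At 12 h it had 6937, 7124 and 7349.7 FPKM, against 15277, 5919 and 5433 in sham livers. mt-Nd3, which has a nuclear copy, had 290.4, 347 and 277 FPKM at 12 h, against 267, 113 and 138 in sham livers, and all 3 of its 12 h values were above all sham values. Its difference was 0.81 ± 0.35 with all libraries (adjusted p = 0.0972) and 1.26 ± 0.33 without sham replicate 1 (adjusted p = 0.0072). The nuclear copy Gm28438 had 170, 378 and 145 counts at 12 h, against 142, 113 and 76 in sham livers. mt-Nd4l, which overlaps the start of mt-Nd4, had 33.0 to 100.4 FPKM over the 12 libraries and was not called in any comparison.

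Complex III passes electrons on to cytochrome c, and its cytochrome b is its one member here. mt-Cytb (chrMT:14145-15288, plus strand) had 13488, 8358 and 7210.0 FPKM in sham livers, 9523, 10473 and 11045 at 3 h, 10748, 12776 and 15486 at 6 h and 10784, 9477 and 10247 at 12 h. It was called at 6 h without sham replicate 1 (0.71 ± 0.15, adjusted p = 0.0023), with 0.40 ± 0.21 when all libraries were kept. At 12 h the difference without that library was 0.37 ± 0.15 (adjusted p = 0.058), which did not pass.

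Complex IV, cytochrome c oxidase, has mt-Co1, mt-Co2 and mt-Co3 at its core. mt-Co1 (chrMT:5328-6872, plus strand) had 28426, 14009.8 and 12403 FPKM in sham livers, 14601, 16425 and 16657 at 3 h, 17748, 19548 and 25107 at 6 h and 19166, 17057 and 19304 at 12 h. With all libraries its difference was 0.16 at 6 h and 0.01 at 12 h, and without sham replicate 1 it was 0.62 ± 0.15 at 6 h (adjusted p = 0.00456) and 0.47 ± 0.15 at 12 h (adjusted p = 0.0201). mt-Co2 was called without sham replicate 1 at 3 h (0.64 ± 0.17, adjusted p = 0.0157) and 6 h (0.56 ± 0.17, adjusted p = 0.0176), with 0.39 ± 0.20 and 0.31 ± 0.20 when all libraries were kept. It had 162, 124 and 176 FPKM at 3 h, against 149.5, 99.7 and 91.8 in sham livers.

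mt-Co3 (chrMT:8607-9390, plus strand) was the member called at 6 h with all libraries, and 1 library carried the call. It had 75.2, 579 and 136 FPKM at 6 h, against 97.3, 64.5 and 51.0 in sham livers. The difference was 1.87 ± 0.56 with all libraries (adjusted p = 0.0194) and 2.16 ± 0.65 without sham replicate 1 (adjusted p = 0.0161). In 6 h replicate 2 it had 6999 counts, the highest of any library, where its nuclear copy Gm28437 had 652 counts, a value within the 541 to 717 counts of that copy over all libraries. Without 6 h replicate 2 the difference was 0.55 and was not called (adjusted p = 0.231), and the call was also lost without sham replicate 2 (1.81) or 3 (1.68).

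ATP synthase has mt-Atp6, part of its proton channel, and mt-Atp8 as members. Neither was called against sham with either set of libraries. mt-Atp6 had 79.6, 121 and 83.5 FPKM at 12 h, against 147, 121 and 128 in sham livers, a difference of -0.48 ± 0.35 (adjusted p = 0.32).

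The 12S and 16S rRNAs of the mitochondrial ribosome, mt-Rnr1 (chrMT:70-1024) and mt-Rnr2 (chrMT:1094-2675), were not called in any comparison. mt-Rnr2 had 251, 296 and 311 FPKM at 12 h, against 638, 383 and 340.1 in sham livers, so that all 12 h values were below all sham values, with a difference of -0.67 ± 0.24 (adjusted p = 0.0521). Without sham replicate 1 the difference was -0.35 ± 0.20. mt-Rnr1 had 509.8, 542 and 625 FPKM at 12 h, against 761, 554 and 489 in sham livers. As a share of mitochondrial counts, which does not depend on scaling between libraries, both rRNAs together took 1.54%, 2.09% and 2.10% in sham livers, 1.30%, 1.63% and 1.28% at 3 h, 1.04%, 1.52% and 1.03% at 6 h and 1.20%, 1.43% and 1.42% at 12 h. The 12 h shares were below all sham shares, while sham replicate 1 was the lowest of its group.

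Among the tRNAs, 9 of 14 on the plus strand and 5 of 8 on the minus strand passed the filter. Together the 22 tRNAs took 0.372% to 0.559% of mitochondrial counts, most of it on minus-strand tRNAs, which took 0.319% to 0.498%. The tRNAs that the results turn on are given here as DNA letters in the sense of the gene, with the anticodon in capitals, from GENCODE M21 transcripts on GRCm38.
mt-Tm: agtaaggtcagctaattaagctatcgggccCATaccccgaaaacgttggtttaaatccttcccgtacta
mt-Tn: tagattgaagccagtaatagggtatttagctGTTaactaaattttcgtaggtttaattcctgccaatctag
mt-Tc: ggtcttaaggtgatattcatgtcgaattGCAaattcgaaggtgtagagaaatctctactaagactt
mt-Ty: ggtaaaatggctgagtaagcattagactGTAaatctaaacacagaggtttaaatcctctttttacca
mt-Th: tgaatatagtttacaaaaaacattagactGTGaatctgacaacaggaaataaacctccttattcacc
mt-Ts2: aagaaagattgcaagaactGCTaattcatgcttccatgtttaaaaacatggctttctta
mt-Tp: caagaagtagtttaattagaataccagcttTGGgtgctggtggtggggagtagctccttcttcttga
They carry methionine (mt-Tm, chrMT:3845-3913, plus strand), asparagine (mt-Tn, chrMT:5089-5159, minus), cysteine (mt-Tc, chrMT:5192-5257, minus), tyrosine (mt-Ty, chrMT:5260-5326, minus), histidine (mt-Th, chrMT:11546-11612, plus), serine (mt-Ts2, chrMT:11613-11671, plus) and proline (mt-Tp, chrMT:15356-15422, minus). No stretch of 50 bases of any of these was found in another annotated transcript.

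Of the neighbouring minus-strand tRNAs, mt-Ty was called lower and mt-Tn higher at 12 h, and mt-Tc was not called. Their values may include reads of plus-strand transcripts at the same place, which cannot be told apart here. mt-Ty had 25.8, 34.3 and 35.9 FPKM at 12 h, against 51.8, 73.0 and 80.7 FPKM in sham livers, and the groups did not overlap. It was lower at 12 h by -1.11 ± 0.27 with all libraries (adjusted p = 0.00755) and by -1.28 ± 0.26 without sham replicate 1, and it was also lower at 3 h and 6 h once that library was left out (-0.80 ± 0.26 and -0.73 ± 0.26). mt-Ty had 32 to 104 counts a library. mt-Tn, which lies beside mt-Tc in the same cluster, had 280.4, 575 and 548 FPKM at 12 h, against 365, 222 and 213 FPKM in sham livers. Its difference was 0.80 ± 0.28 with all libraries (adjusted p = 0.0469), where sham replicate 1 overlapped the 12 h range, and 1.09 ± 0.28 without sham replicate 1 (adjusted p = 0.00697). The mt-Tn call with all libraries lay close to the threshold and was lost when any of 9 other libraries was left out, among them 12 h replicate 2 (0.62, adjusted p = 0.165) and sham replicate 3 (0.67, adjusted p = 0.154). mt-Tc had 391, 556 and 537 FPKM at 12 h, against 942, 371 and 318 FPKM in sham livers, a difference of -0.14 ± 0.37 that became 0.51 ± 0.27 without sham replicate 1 and passed in neither.

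mt-Tm was the other member called lower at 12 h, on few reads. It had 0, 6 and 0 counts at 12 h, against 7, 16 and 17 counts in sham livers, with a fitted difference of -2.65 ± 0.87 (adjusted p = 0.0342) and of -2.92 ± 0.88 without sham replicate 1 (adjusted p = 0.0159). The fitted value depends on how counts of 0 are treated. The call was lost without sham replicate 2 or 3 or without 12 h replicate 1 or 3, where the difference was -2.50, -2.47, -2.09 and -2.10.

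The other tRNAs named were called against sham only in the 11 libraries without sham replicate 1. mt-Tp, which lies next to the control region of the genome, was the highest of all tRNAs per length. It had 3159, 3494 and 4061 FPKM at 12 h, against 6653, 1824 and 1644 FPKM in sham livers. Its difference at 12 h was 0.08 ± 0.41 with all libraries and 1.03 ± 0.19 without sham replicate 1 (adjusted p = 0.0011). mt-Ts2 had 107, 122 and 134 FPKM at 12 h, against 218, 32.8 and 41.4 FPKM in sham livers, with 0.31 ± 0.54 and then 1.68 ± 0.31 (adjusted p = 0.000856). mt-Th, next to mt-Ts2, had 77.5, 108 and 76.9 FPKM at 12 h, against 84.3, 23.3 and 36.5 FPKM in sham livers, with 0.86 ± 0.45 and then 1.53 ± 0.43 (adjusted p = 0.0107). mt-Te, the tRNA for glutamate next to mt-Nd6, had the smallest ratio of highest to lowest level of any tested tRNA, with 344 to 525 FPKM over the 12 libraries, and was not called in any comparison. The remaining tested tRNAs (mt-Tl1, mt-Ti, mt-Tw, mt-Tg, mt-Tr and mt-Tl2) were not called in any comparison with either set of libraries. Of these, mt-Tl2 had 136 to 324 FPKM, mt-Tw 17.0 to 130.0 FPKM, mt-Tl1 15.1 to 80.8 FPKM, mt-Tg 7.75 to 65.2 FPKM, mt-Tr 5.16 to 31.5 FPKM and mt-Ti 0 to 16.6 FPKM over the 12 libraries.

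The comparison of 12 h with 3 h contains no sham library, so its log2 differences did not depend on sham replicate 1. With all 12 libraries in the model 2 members were called, where 37.7% of all tested genes were: mt-Tn was higher by 1.07 ± 0.29 (adjusted p = 0.0113) and mt-Atp6 lower by -0.96 ± 0.35 (adjusted p = 0.0458). Sham replicate 1 still entered through the shared spread. Without it 10 members were called, 8 higher and 2 lower, where 50.1% of all genes were (24.8% higher and 25.3% lower). With only the 6 libraries of these groups in the model 12 members were called, 10 higher and 2 lower. The members' median difference was 0.08 and that of all genes 0.01. In 13 members the groups did not overlap, 10 above and 3 below, which is 56.8% over all tested genes.

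The members higher at 12 h than at 3 h without sham replicate 1 in the model were mt-Nd1 (0.41 ± 0.14), mt-Nd3 (0.85 ± 0.28), mt-Nd6 (0.58 ± 0.17), mt-Tn, mt-Tc (0.79 ± 0.25), mt-Th (1.19 ± 0.37), mt-Ts2 (1.13 ± 0.26) and mt-Tp (0.70 ± 0.17). For mt-Nd6 the FPKM values were 3765, 3819 and 4609 at 12 h, against 2629, 2638 and 3088 at 3 h. For mt-Tp they were 3159, 3494 and 4061 at 12 h, against 1985, 2137 and 2628 at 3 h. The members lower at 12 h were mt-Co2 (-0.43 ± 0.15) and mt-Atp6, both with a nuclear copy. mt-Co2 had 115, 110.5 and 109 FPKM at 12 h, against 162, 124 and 176 FPKM at 3 h. In the same model 3 of the copies on chromosome 1 were called, Gm28661 of mt-Co2 lower (-0.39 ± 0.12, adjusted p = 0.0181), Gm29216 of mt-Co1 lower (-0.81 ± 0.25, adjusted p = 0.0163) and Gm28438 of mt-Nd3 higher (1.09 ± 0.36, adjusted p = 0.0247). With all libraries the Gm28661 copy was not called (adjusted p = 0.0801), and the other two were (adjusted p = 0.0377 for Gm29216 and 0.0417 for Gm28438). The copy of mt-Atp6, Gm10925, was not called (-0.29 ± 0.33, adjusted p = 0.477), nor were Gm28437 (-0.05), Gm10222 (-0.53) and Gm28439 (0.44). The 3 h values of mt-Atp6, 179.6, 98.5 and 289.6 FPKM, were wide, and without 3 h replicate 3 its difference was -0.53 and was not called. That call was also lost, with a difference of -0.85 to -0.99, without sham replicate 2 or 3, 3 h replicate 1, 6 h replicate 2, or 12 h replicate 1 or 3. The mt-Tn call was lost without 3 h replicate 1 (0.94, adjusted p = 0.0538). Marker sums of other kinds moved in the same comparison. Those of hepatocytes were 25518 to 27323 FPKM at 12 h and 42049 to 51079 FPKM at 3 h, those of red blood cells 52.1 to 74.0 FPKM at 12 h and 153 to 178 FPKM at 3 h, those of neutrophils 6.54 to 8.69 FPKM at 12 h and 13.4 to 14.3 FPKM at 3 h, those of macrophages 52.0 to 63.5 FPKM at 12 h and 80.5 to 101 FPKM at 3 h, and those of endothelial cells 23.5 to 29.2 FPKM at 12 h and 42.6 to 54.1 FPKM at 3 h. The part of these changes in the members' values was not tested.

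Between neighbouring time points few members were called. At 6 h against 3 h none was, where 9.11% of all tested genes were (1 member had an unadjusted p under 0.05, and DESeq2 also called 0). Without sham replicate 1 in the model 4 were, all higher, where 19.4% of all genes were called and 9.89% called higher: mt-Co1 (0.40 ± 0.13), mt-Co3 (1.71 ± 0.55), mt-Nd6 (0.56 ± 0.17) and mt-Tp (0.53 ± 0.17). In 6 h replicate 2 mt-Co3 had 6999 counts, against 839 and 1448 in 6 h replicates 1 and 3. Over the alternatives its difference at 6 h against 3 h ran from 0.39 to 2.15. At 12 h against 6 h mt-Tn was higher (0.82 ± 0.28, adjusted p = 0.0493), and mt-Tm (-2.62 ± 0.88, adjusted p = 0.0445) and mt-Co3 (-1.79 ± 0.56, adjusted p = 0.033) were lower, where 25.7% of all genes were called. The same 3 members were called without sham replicate 1, where 38.1% of all genes were. The mt-Co3 difference was -0.47 without 6 h replicate 2 and was then not called, and the call was also lost without any one of the 12 h libraries (-1.77 to -1.80). With 1 library left out at a time, the mt-Tn call at 12 h against 6 h was lost in 8 of 12 cases and the mt-Tm call in 10 of 12.

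Shares within the mitochondrial counts show which members moved apart. mt-Nd1 took 12.5% to 13.5% at 12 h, against 9.07% to 10.3% in sham livers, with 11.1% to 12.0% at 3 h and 10.6% to 11.6% at 6 h, so the 12 h range lay above all others. mt-Nd2 took 9.74% to 10.7% at 12 h, against 11.3% to 14.1% in sham livers. mt-Nd4 took 6.84% to 7.11% at 12 h, against 7.39% to 8.19% in sham livers. mt-Cytb took 15.3% to 16.7% at 12 h, against 18.3% to 18.5% at 3 h, and in sham livers it took 13.7% in replicate 1 and 17.3% and 17.6% in the others. Genes on the minus strand together took 3.04%, 3.36% and 3.61% at 12 h, against 2.62%, 2.42% and 2.71% at 3 h, and in sham livers 3.61% in replicate 1 and 2.41% and 2.39% in the others. On this measure, too, sham replicate 1 lay with the 12 h libraries for genes annotated on the minus strand, but not for mt-Nd1. Most of that minus-strand share was mt-Nd6, with 2.64% to 3.12% at 12 h, and reads of opposite strands cannot be told apart.

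The nuclear genes that encode the partners of these subunits were set beside them. At 12 h against 3 h none of the nuclear subunits tested was called higher. Of 36 nuclear subunits of complex I 19 were lower (25 without sham replicate 1), of 9 of complex III 5 (7), of 11 of complex IV 5 (8) and of 16 of ATP synthase 9 (10), where 19.0% of all tested genes were called lower (25.3% without sham replicate 1). Their medians were -0.59, -0.81, -0.62 and -0.59. The 16 counted for ATP synthase include its inhibitor Atpif1, which is not a subunit (0.036, not called). The strongest of each complex were Uqcr11 of complex III (-1.46 ± 0.42), Atp5e of ATP synthase (-1.27 ± 0.39), Cox6a1 of complex IV (-1.20 ± 0.28) and Ndufa2 of complex I (-1.19 ± 0.38). The 7 mitochondrially encoded complex I genes all had positive differences, from 0.08 to 0.85, with a median of 0.34. With all libraries 0 of them were called. Without sham replicate 1, 3 were called higher, where 24.8% of all tested genes were. The lowest, mt-Nd2 and mt-Nd4l, were at 0.08 ± 0.31 and 0.08 ± 0.43 with all libraries. The mitochondrially encoded genes of the other complexes did not all share this direction. Of these, mt-Co2, mt-Co3 and mt-Atp6 have a nearly full-length nuclear copy, as mt-Nd3 and mt-Nd4l do in complex I. mt-Atp8 had 4 to 19 counts a library. mt-Cytb of complex III had a difference of 0.0074, and the 3 of complex IV had a median of -0.08, with 1 positive (mt-Co1, 0.25) and mt-Co2 called lower without sham replicate 1. The 2 of ATP synthase had a median of -0.48, with neither positive and mt-Atp6 called lower. The difference between mitochondrial and nuclear subunits was not tested for any complex. When libraries were scaled by their totals, the median over all genes in this comparison became 0.17 and that of the 29 members 0.26.

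**Figure D5:**
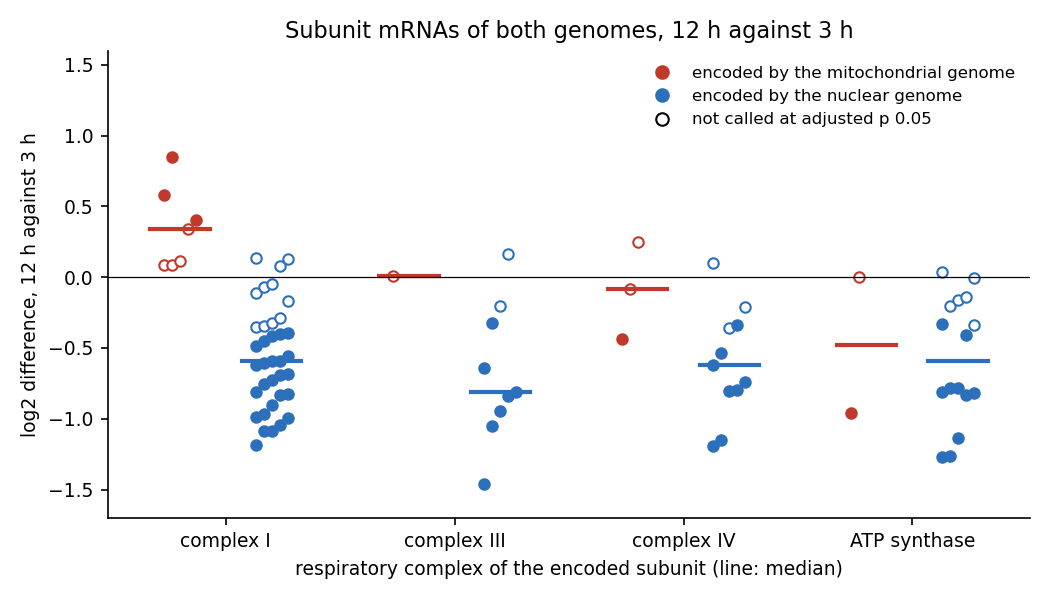
Log2 difference at 12 h against 3 h (y axis) of respiratory chain mRNAs encoded by the mitochondrial genome (red) and the nuclear genome (blue), by complex (x axis), from the model without sham replicate 1; lines are medians and filled points were called at an adjusted p under 0.05. For complex I the red median is 0.34 and the blue one -0.59, while for complex IV the red median is -0.08 and for ATP synthase -0.48, and no blue point was called higher. Of the red points, mt-Nd3, mt-Nd4l, mt-Co2, mt-Co3 and mt-Atp6 have a nearly full-length nuclear copy.

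Against sham, the nuclear subunits of complex I at 12 h included 8 lower of 36 with all libraries and 24 without sham replicate 1, and none higher in either. Of all tested genes 15.9% were called lower with all libraries and 24.1% without that library, beside 22.2% and 66.7% of these 36. Their median was -0.38 and then -0.54, so leaving out sham replicate 1 moved it down. The median of the 7 mitochondrially encoded complex I genes was 0.80 without that library, against 0.03 with it. Over all 29 members, rRNAs and tRNAs included, the median was 0.37 without it and 0.03 with it. At 3 h no nuclear subunit of any of the 4 complexes was called against sham by edgeR, where 22.6% of all tested genes were.

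Of the nuclear genes of mitochondrial transcription, 2 of 9 tested were higher and 1 lower at 12 h against sham. This is 33.3% of the list, near the 30.0% of all tested genes called. Tfam, which packages mitochondrial DNA and starts its transcription, had 13.5, 12.9 and 12.3 FPKM at 12 h, against 11.1, 7.37 and 7.91 FPKM in sham livers, the highest sham value being that of replicate 1. It was higher at 12 h by 0.55 ± 0.15 (adjusted p = 0.0151) and by 0.74 ± 0.11 without sham replicate 1. Polrmt, the mitochondrial RNA polymerase, had 3.15, 3.13 and 2.16 FPKM at 12 h, against 3.52, 4.95 and 5.13 FPKM in sham livers, and was lower by -0.70 ± 0.20 (adjusted p = 0.018). Tfb1m, an rRNA methyltransferase of the mitochondrial ribosome, was higher by 0.96 ± 0.23 (adjusted p = 0.00719). Tfb2m, an initiation factor of the polymerase, was called only without sham replicate 1 (0.52 ± 0.18, against 0.18 ± 0.23 with all libraries). At 3 h and at 6 h edgeR called 0 genes of this list, where 22.6% and 36.3% of all genes were called (at 6 h 3 were higher and 1 lower without sham replicate 1, where 44.5% of all genes were called).

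Of the nuclear genes for mitochondrial RNA processing, polyadenylation and stability that were called, most were higher. Of 31 tested, 4 were higher and 1 lower at 3 h, 9 and 1 at 6 h, and 6 and 1 at 12 h against sham, with medians of 0.09, 0.23 and 0.13 beside -0.02, -0.01 and -0.02 for all tested genes. The share of the list called, 16.1%, 32.3% and 22.6%, was below that of all tested genes, 22.6%, 36.3% and 30.0%. Beside the 9 of 31 higher at 6 h stand 17.4% of all tested genes called higher. Without sham replicate 1 the counts were 5 and 0, 12 and 0, and 13 and 2, which is 16.1%, 38.7% and 48.4% of the list beside 24.3%, 44.5% and 47.6% of all genes. Pde12, which removes poly(A) tails from mitochondrial RNA, was higher by 1.03 ± 0.19 at 3 h, 1.20 ± 0.19 at 6 h and 0.75 ± 0.19 at 12 h. Trmt61b, a tRNA methyltransferase, was higher by 1.53 ± 0.27 and Trub2, a pseudouridine synthase, by 1.05 ± 0.16 at 6 h. Lrpprc, which stabilises mitochondrial mRNAs, had a difference of 0.38 ± 0.14 at 12 h (adjusted p = 0.0652) and was called without sham replicate 1 (0.54 ± 0.12, adjusted p = 0.0032). Mtpap, the mitochondrial poly(A) polymerase, had 0.17 ± 0.21 at 12 h and was called without sham replicate 1 (0.50 ± 0.15, adjusted p = 0.0176).

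Genes of mitochondrial translation and of mitochondrial DNA upkeep gave mixed counts at 12 h against sham, where 30.0% of all tested genes were called (47.6% without sham replicate 1). Of 77 mitochondrial ribosomal protein genes 7 were higher and 4 lower (9 and 20 without sham replicate 1), or 14.3% of the list (37.7%), with Mrpl14 (-1.22 ± 0.36) and Mrpl38 (-1.02 ± 0.31) the furthest. Of 18 mitochondrial aminoacyl-tRNA synthetase genes 1 was higher and 5 lower, or 33.3% of the list (38.9% without sham replicate 1), among them Fars2 for phenylalanine (-0.96 ± 0.20) and Aars2 for alanine (-0.79 ± 0.23). Of 17 translation factor genes 1 was higher and 1 lower (5 and 2 without sham replicate 1), or 11.8% of the list (41.2%), namely Taco1 (0.42 ± 0.15), an activator of mt-Co1 translation, and Oxa1l (-0.58 ± 0.13), which inserts the new proteins into the inner membrane. Of 14 genes of mitochondrial DNA replication and maintenance 2 were higher and 5 lower (3 and 6 without sham replicate 1, or 64.3% of the list). Both shares lay above those of all genes, of which 15.9% were called lower with all libraries. Polg2, the accessory subunit of the mitochondrial DNA polymerase, was lower by -1.61 ± 0.30 at 3 h, -1.98 ± 0.31 at 6 h and -0.84 ± 0.29 at 12 h, where it was no longer called without sham replicate 1 (-0.73 ± 0.31). Of 11 regulators of mitochondrial biogenesis 4 were higher and 4 lower at 6 h, or 72.7% of the list beside 36.3% of all genes, with Ppargc1b (-2.32 ± 0.67) and Pprc1 (1.68 ± 0.35) the furthest, and 1 was lower at 12 h, or 9.09% of the list (1 higher and 3 lower without sham replicate 1, or 36.4%). Of 22 genes of import and structure 1 was higher and 4 lower at 12 h (5 and 8 without sham replicate 1), or 22.7% of the list (59.1%), among them Cs, citrate synthase (-0.71 ± 0.15), and the protease Lonp1 (-0.68 ± 0.14).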

How the data were processed

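Whole-liver polyA RNA was sequenced by the authors. The deposited table gives raw read counts per gene and FPKM values for the 12 libraries. The submitters' processing notes name the build GRCm38 and, with no role or order, featureCounts (1.5.0-p3), HISAT2 (2.0.5), DESeq2 (1.20.0), CASAVA (1.8) and fastp. From the values, the authors' FPKM is the count divided by gene length and by a depth, which is a size factor of the median-ratio kind multiplied by the geometric mean of all library totals. How reads with several matches were counted is not given in the sources used here.

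The members and gene lists were chosen with earlier results of these data known. Genes with at least 1 FPKM and at least 10 counts in at least 3 of 12 libraries were tested with edgeR 4.0.16 in R 4.3.3 (TMM scaling, quasi-likelihood test, 1 model of 4 groups), with Benjamini-Hochberg adjustment over all tested genes and a threshold of 0.05. The count minimum was added because 1 FPKM of a tRNA is about 1 read. The biological coefficient of variation was 20.6%, and an F-test over the groups called 5754 genes (52.1%). Tested genes held at least 99.1% of each library's counts. Every table row names a gene. Every comparison was repeated without sham replicate 1. Other alternatives were DESeq2 1.42.0, limma 3.58.1 on log2(FPKM + 1 or 0.1), other scalings and filters, leaving out each library, a replicate block, and adding the counts of nuclear copies to their mitochondrial gene. Intervals of shares are 95% Wilson intervals. Copies were sought as shared words of 50 bases among GENCODE M21 transcripts and aligned with Biopython 1.88. The scripts were tested on simulated data.

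Named are all members, and of each nuclear list the called genes with the largest differences, plus Polrmt, Tfam, Tfb2m, Lrpprc, Slirp and Mtpap. Slirp averaged 0.211 FPKM in sham livers and was not tested. Of 18 same-numbered pairs of libraries, 4 had a correlation of deviations over 0.1, beside 11 of 36 other-numbered pairs. The medians were 0.022 and -0.011. The replicate numbers thus showed no sign of pairing the samples, which does not exclude a pairing.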

Additional observations from a re-analysis of the deposited data

Results flagged for a closer look

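Several members differed between times after resection in tests of that difference. mt-Tn was higher at 12 h than at 3 h by 1.07 and than at 6 h by 0.82 on the log2 scale, with 280.4, 575 and 548 FPKM at 12 h, against 232, 225 and 347 FPKM at 6 h and 187, 236 and 263 FPKM at 3 h. Without 3 h replicate 1 the first difference was 0.94 with an adjusted p of 0.0538 by edgeR. mt-Tm was lower at 12 h than at 6 h by -2.62, with 0, 6 and 0 counts at 12 h, against 13, 7 and 11 counts at 6 h. mt-Co3 was lower at 12 h than at 6 h by -1.79, which rests on the 6999 counts of 6 h replicate 2: without that library the difference was -0.47. mt-Atp6 was lower at 12 h than at 3 h by -0.96, and by -0.53 without 3 h replicate 3, which was not called. With the counts of the nuclear copies added to their mitochondrial genes, the mt-Atp6 difference was -0.63 (adjusted p = 0.172 by edgeR).

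Outside the mitochondrial rows, Gm13341, a pseudogene on chromosome 2 that shares part of its sequence with mt-Co2, was higher at 6 h than in sham livers by 1.09, with 25, 38 and 49 counts at 6 h, against 28, 26 and 11 counts in sham livers. The groups overlapped.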

How the results depend on the processing

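Counts of members called are given in the order 3 h, 6 h and 12 h against sham, then 6 h against 3 h, 12 h against 6 h and 12 h against 3 h; the reported counts were 0, 1, 3, 0, 3 and 2. With no filter they were 4, 2, 9, 1, 5 and 9, over more members. With scaling by library totals they were 4, 4 and 5 in the comparisons 3 h and 6 h against sham and 12 h against 3 h. limma on log2(FPKM + 1) or log2(FPKM + 0.1) gave 0 for 6 h against sham and 1 for 12 h against 6 h. With only the libraries compared in the model, 6 h against sham gave 0, 12 h against sham 1 and 12 h against 3 h 12. For 12 h against 3 h, DESeq2 gave 5 and adding the nuclear copies 1. With the replicate number as a block, 6 h against sham and 12 h against 6 h gave 0 each, on numbers that showed no sign of pairing the samples. Leaving out 1 library, or both sham replicate 1 and 6 h replicate 3, gave 0 to 5, 0 to 11, 1 to 12, 0 to 4, 0 to 3 and 0 to 11. For single members against sham, the value of mt-Nd1 at 3 h ran from -0.15 to 0.47 when libraries were left out. At 6 h the same range was -0.0502 to 0.62 for mt-Co1, -0.0921 to 0.52 for mt-Nd4, -0.71 to 1.08 for mt-Ts2, -0.21 to 0.86 for mt-Nd5, -0.15 to 0.99 for mt-Nd6 and -0.42 to 0.86 for mt-Tp. At 12 h it was -0.20 to 0.47 for mt-Co1, -0.10 to 1.68 for mt-Ts2, -0.27 to 0.80 for mt-Nd5, -0.14 to 1.01 for mt-Nd6 and -0.25 to 1.03 for mt-Tp. In these ranges the upper end comes from leaving out sham replicate 1. Scaling by library totals turned mt-Nd1 at 3 h to -0.0949, and at 6 h mt-Co1 to -0.13, mt-Nd4 to -0.19, mt-Nd5 to -0.20 and mt-Nd6 to -0.13. At 6 h limma gave mt-Ts2 0.25 and 0.26 and mt-Tp 0.22 and 0.22, and the block gave mt-Tp 0.018; the cause was not tested. Over all single-member results and alternatives, 850 kept direction and side of the threshold, 41 turned, 87 became called and 72 lost the call; mt-Ty at 12 h against sham kept its call in all 25 alternatives. Scaling by library totals moved the median of all genes to -0.20, -0.32, -0.03, -0.12, 0.26 and 0.17, and the share of calls that were higher to 25.1%, 22.1%, 47.9%, 29.8%, 84.5% and 69.4%, against 45.4%, 47.9%, 47.0%, 51.9%, 49.1% and 49.7% as reported. With 1 library left out at a time, the lowest differences in mitochondrial share against sham were -2.88, -1.87 and -1.02 percentage points (3, 6 and 12 h), and the highest, all without sham replicate 1, were 0.32, 1.33 and 2.19. Between times the lowest were 0.38 for 6 h against 3 h (without 6 h replicate 3), 0.371 for 12 h against 6 h (without 6 h replicate 1) and 1.73 for 12 h against 3 h, and the highest 1.495, 1.487 and 2.06, the second without 6 h replicate 3. These are shares of library totals, and on the scaling used in the tests the 12 h libraries lay within the 6 h range. Low counts limit mt-Tm, mt-Atp8 and the untested tRNAs.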
